A study of Mus musculus with 60 samples.

Results

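The 300 cDNA clones with the brightest signal before treatment, the most abundant transcripts of uninduced mouse erythroleukemia cells as far as spot brightness shows it, were followed through 3 chemical treatments. They were selected on the before-treatment intensities of all arrays: for each clone listed on all 60 arrays, the log2 intensity before treatment minus the median of its slide's file was averaged over the arrays, and the 300 clones with the highest average were kept out of 9593. All 300 also belonged to the 14582 clones tested. The cells were the line T-3-Cl-2-0.fl, which the labels describe as highly inducible, grown without an inducer and then treated for 1, 6, 12, 24 or 36 h with 30 nM TSA, 5 mM HMBA or 1.5% DMSO. One label of the DMSO samples gives another dose, without the decimal point. Each of the 15 conditions had 4 technical arrays, on which RNA after treatment was compared with RNA before treatment. The dyes were exchanged on replicates 3 and 4. All groups were 1 transformed line, and no untreated culture of matched time was labelled.

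Mouse erythroleukemia cells are virus-transformed red cell precursors that are arrested short of maturation and begin to make haemoglobin when an inducer is added. TSA (trichostatin A) inhibits histone deacetylases, whereas HMBA (hexamethylene bisacetamide) and DMSO (dimethyl sulfoxide) are small polar inducers. In dividing cells in general, the most abundant messages encode ribosomal proteins, translation factors, glycolytic enzymes and the cytoskeleton, while maturing red cells turn to globin. No file, and no row of the reference gene table, paired the clone identifiers with genes, so which of the 300 clones carry such messages is not known here, and clones are given by identifier. An identifier names the plate, the plate row and the plate column, and several clones can represent 1 gene. Since the arrays measure RNA of whole cultures, fewer cells that hold a transcript and less of it per cell cannot be told apart.

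Before treatment, the 300 clones lay between 4.41 and 6.22 log2 units above the file median, with a median of 4.79, against a median of 0.96 over the 9593 clones. The highest were H3085H12 at 6.22 ± 0.48 and H3010A11 at 6.04 ± 0.61 log2 units (SD over 60 arrays). H3085H12 was among the brightest 300 clones of its own array on 60 of 60 arrays, and H3010A11 on 59. The lowest members stood close to the clones that were left out: H3023G12 and H3002E10, the last 2 members, had 4.413 and 4.412, while H3076D05 and H4011F08, the first 2 clones left out, had 4.412 and 4.408. The curve of levels is therefore smooth at the boundary, and it carries no test. In linear units the members' median intensity was 17753 after and 18365 before treatment, against 1235 before treatment over the 9593 clones. A spot's brightness depends on the cDNA that was spotted as well as on the RNA, so the ranking orders signals and does not measure molecules.

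**Figure D1:**
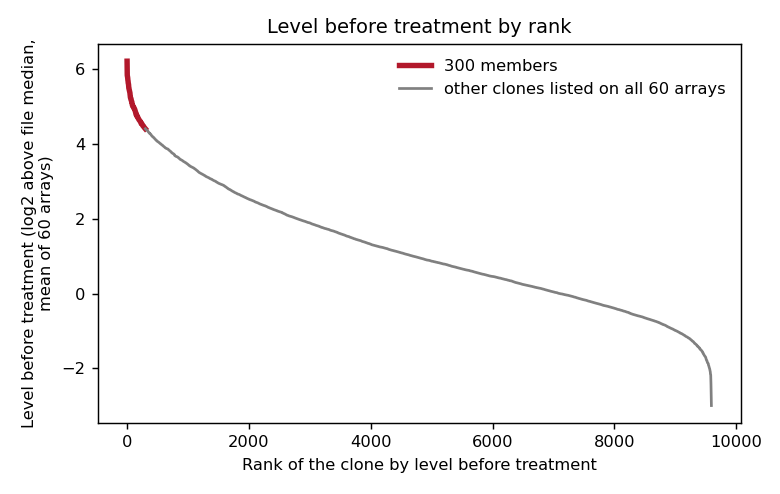
The level before treatment, in log2 units above the file median and averaged over 60 arrays, is plotted against the rank of the clone for the 9593 clones listed on all arrays. The 300 members (red) run from 6.22 down to 4.41 and join the other clones (grey) without a gap.

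Membership varied between arrays. Only 13 members were among the brightest 300 clones on every array, 205 were so on at least 30 arrays, and 1 on fewer than 15. Subtracting the median of the whole array instead of that of each slide's file kept 274 of the 300 (membership from array medians). Ranking without the arrays of a chemical kept 263 of 300 without TSA, 268 without HMBA and 251 without DMSO. The choice made with the before-treatment RNA in Cy3 shared 276 members, and that with it in Cy5 shared 280. Members were a median of 0.64 log2 units lower with the before-treatment RNA in Cy3 than in Cy5. Saturation touched few spots: of 18000 member spots in each channel, 42 after and 64 before treatment exceeded 60000, and 41 members had at least 1 such spot.

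The members came from 173 of the 5904 clones of H3 plates and from 127 of the 3689 clones of H4 plates, that is 2.93% and 3.44%. They were spread over 147 of 238 plates. Plate H4073 held 10 of them and plate H3011 held 7. By plate row, the shares were highest in rows D (55 clones, 4.27%) and H (51 clones, 4.15%) and lowest in rows B (2.11%) and C (1.93%), against 3.13% overall. Plate columns 1, 11 and 12 gave 4.19%, 4.31% and 4.07%. The part of position on the plate in the ranking was not tested.

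The 300 clones took between 15.4% and 25.8% of the summed intensity of an array after treatment and between 16.7% and 25.8% before treatment. At 36 h the share was 19.7% ± 1.24 after and 21.4% ± 1.37 before TSA treatment. With HMBA it was 23.4% ± 1.59 after and 24.3% ± 1.70 before treatment, and with DMSO 16.3% ± 0.76 after and 17.5% ± 0.88 before treatment (SD over 4 arrays each). At 36 h the share after treatment was the lower of the 2 means for each chemical. On single arrays with TSA and HMBA the direction went with the dye. With TSA the share was 20.9% after and 20.3% before treatment on replicate 1 (after-treatment RNA in Cy5). On replicate 3 (Cy3) it was 18.4% and 22.8%. With HMBA these arrays gave 24.0% and 22.2%, and 21.6% and 25.5%. With DMSO only replicate 2 was higher after treatment (17.0% and 16.7%). The mean share after treatment was the higher with HMBA at 1 h (21.1% after and 20.8% before treatment) and 6 h (23.4% and 23.3%). It was also the higher with DMSO at 1 h (19.3% and 18.7%). Each time this was by less than 1 SD over arrays. A lower share after treatment is favoured by the choice of the members on their before-treatment signal, so no test was made.

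Changes are given as log2 ratios after over before treatment. The before-treatment intensity is the denominator of this ratio and also chose the members, so a single condition's ratio is described without a test. Slopes on time and differences between chemicals are contrasts of such ratios, and these were tested. A constant excess in the denominator cancels in them, while an excess that differs between the arrays compared does not. The before-treatment signal of some clones did differ between chemicals. At 24 h the median intensity of H4016D11 before treatment was 22212 on DMSO arrays and 10069 on TSA arrays. That of H3078A01 was 5370 and 14870. The part of such differences in the contrasts was not tested. Pairs of arrays of the same condition and dye orientation correlated over the members at a median r of 0.771 and over all 14582 clones at 0.539. Across opposite orientations the median r was 0.452 over the members and 0.197 over all clones. Technical SDs were also smaller for the members in every condition, for example a median of 0.22 against 0.31 log2 units with TSA at 12 h. Each of these figures describes arrays of shared RNA, not repeated cultures. At 1 h the opposite orientations went against each other over the members with HMBA (r = -0.41) and with DMSO (r = -0.40), and the HMBA pair with after-treatment RNA in Cy3 had r = -0.12, so the direction of change at 1 h with these chemicals is not settled.

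The members as a group stayed near their level before treatment. With TSA the median log2 ratio of the 300 clones was -0.02, -0.03, -0.03, -0.02 and -0.02 at 1, 6, 12, 24 and 36 h. With HMBA the medians were 0.00, -0.06, -0.06, -0.01 and 0.03 at these times. With DMSO they were -0.05, -0.08, -0.06, -0.07 and -0.11. Over all clones tested the medians stayed between -0.02 and 0.02 in every condition. With DMSO at 36 h, the median on single arrays lay between -0.13 and -0.10, and 37.7% of members were above 0, against 50.4% of all clones. Loess normalization can take up a shift that the brightest clones of a slide share. Without it the medians at 36 h, over condition values, were -0.06 with TSA, -0.11 with HMBA and -0.06 with DMSO, so the order of the chemicals changed with the normalization.

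**Figure D2:**
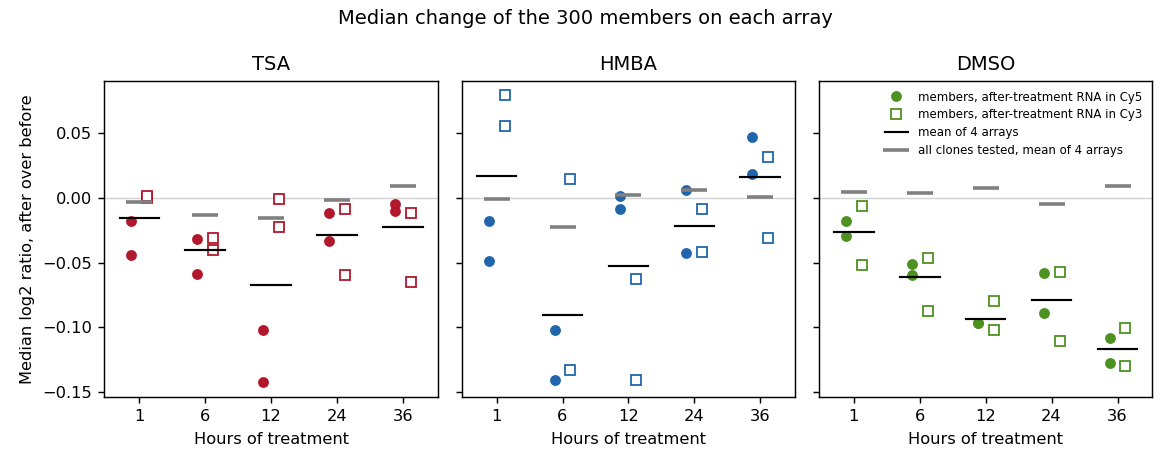
The median log2 ratio, after over before treatment, of the 300 members is plotted for each array by chemical and hours of treatment, with filled circles for after-treatment RNA in Cy5 and open squares for Cy3. The black lines are means of 4 arrays and the grey lines the same mean over all clones tested. With DMSO all 4 arrays at 36 h lie between -0.13 and -0.10.

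In a single condition few members were far from their level before treatment. At 12 and 36 h most of those were lower with TSA and with DMSO, and most were higher with HMBA. Over all clones tested, more were likewise higher with HMBA, and more were lower with DMSO and with TSA at 12 h. With TSA at 36 h more of all clones were higher. A size of at least 0.5 log2 units in 1 direction on 4 of 4 arrays was used as a description. With TSA at 12 h, 7 members were higher (1.74% of all clones tested passed in this direction) and 31 lower (2.19% of all clones). At 36 h with TSA 2 were higher (1.63% of all clones) and 26 lower (1.25% of all clones). With HMBA at 12 h, 6 were higher (2.37% of all clones) and 4 lower (1.32% of all clones), and at 36 h 8 were higher (1.98% of all clones) and 2 lower (0.768% of all clones). With DMSO at 12 h, 1 was higher (1.34% of all clones) and 14 lower (1.59% of all clones), and at 36 h 0 were higher (0.802% of all clones) and 9 lower (1.06% of all clones). The direction common to TSA and DMSO is also the one that selection on the denominator favours.

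A size of 1 log2 unit on 4 of 4 arrays was reached in at least 1 condition by only 3 members. H4016D11 and H3078A01 reached it in both directions, and H3139E01 upward. Over all clones tested, 2.26% reached it upward and 1.41% downward. Of the 300 members, 150 stayed within 0.5 log2 units of 0 in all 15 condition values, against 5348 of the 14582 clones tested. The SD of a clone's 15 condition values had a median of 0.19 log2 units over the members and 0.25 over all clones tested. Brighter spots have less technical error, as the technical SDs above show, and the part of that error in this difference was not tested.

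The 31 members that were at least 0.5 lower on 4 of 4 arrays with TSA at 12 h had a median of -0.91 there, by the way they were picked. Their medians with TSA were -0.19 and -0.43 at the 2 earlier times, and -0.69 and -0.66 at the 2 later times. With HMBA the same clones stood at -0.24 at 12 h and -0.13 at 36 h, and with DMSO at -0.40 at 12 h and -0.52 at 36 h. Of the 31, 12 also passed this size at 24 h, 12 at 36 h, and 8 at both. At 12, 24 or 36 h with TSA, 14 members passed this size upward (3.61% of all clones) and 48 downward (3.51% of all clones), and 47 of the 48 came from H3 plates. With HMBA 11 members passed it upward (4.46% of all clones) and 6 downward (2.27% of all clones). With DMSO 4 passed it upward (2.45% of all clones) and 20 downward (2.27% of all clones), and 8 of the 20 were among the 48.

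The plates of origin set the members apart with TSA, most at 12 h, and also with DMSO. The 34 members of plates H3121 to H3159 had a median of -0.65 log2 units with TSA at 12 h, the 139 of plates H3001 to H3120 had -0.15, and the 127 of H4 plates had 0.06. Over all clones tested of these plates, the medians were -0.05, -0.03 and -0.01. The 300 clones next in brightness had -0.44, -0.06 and 0.00 on the same plates. On HMBA and TSA arrays, plates H3121 to H3159 shared a slide with the H4 plates, whereas on DMSO arrays they shared a slide with the other H3 plates. With DMSO the members of plates H3121 to H3159 and of plates H3001 to H3120 had medians of -0.34 and -0.08 at 12 h. At 24 h they had -0.26 and -0.12, and at 36 h -0.41 and -0.13. With TSA the same members had -0.29 and -0.02 at 24 h, and -0.41 and -0.11 at 36 h. The late medians of plates H3121 to H3159 were thus close with TSA and with DMSO. With HMBA the 34 and the 139 members had -0.17 and -0.12 at 12 h. The difference between sets of plates was not tested. Because DMSO arrays had another slide layout, the layout and the chemical cannot be told apart in comparisons with DMSO.

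**Figure D3:**
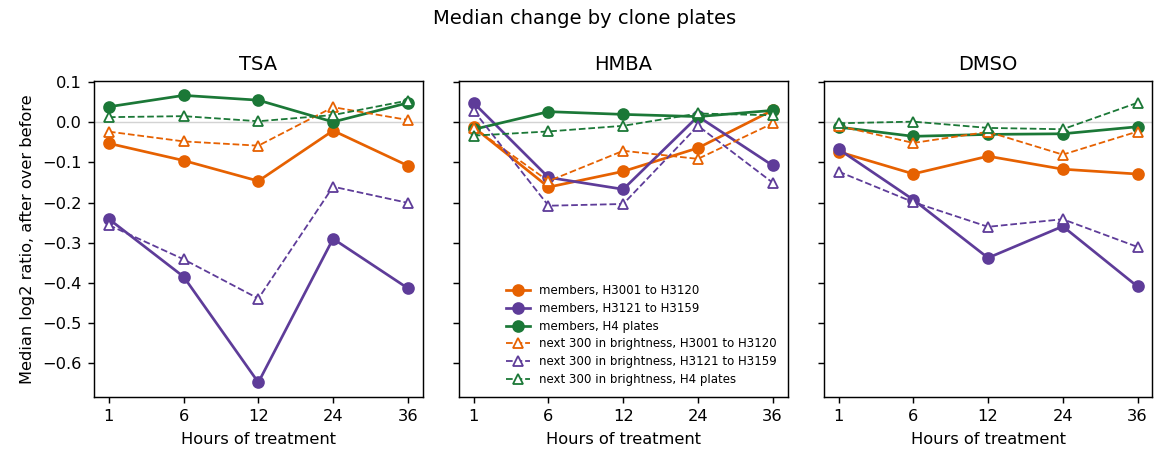
The median log2 ratio, after over before treatment, is plotted against hours of treatment by chemical for members of 3 sets of plates (filled circles, solid lines) and for the 300 clones next in brightness, by the same plates (open triangles, dashed lines). With TSA at 12 h the members of plates H3121 to H3159 reach -0.65 while those of the H4 plates are at 0.06.

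**Figure D4:**
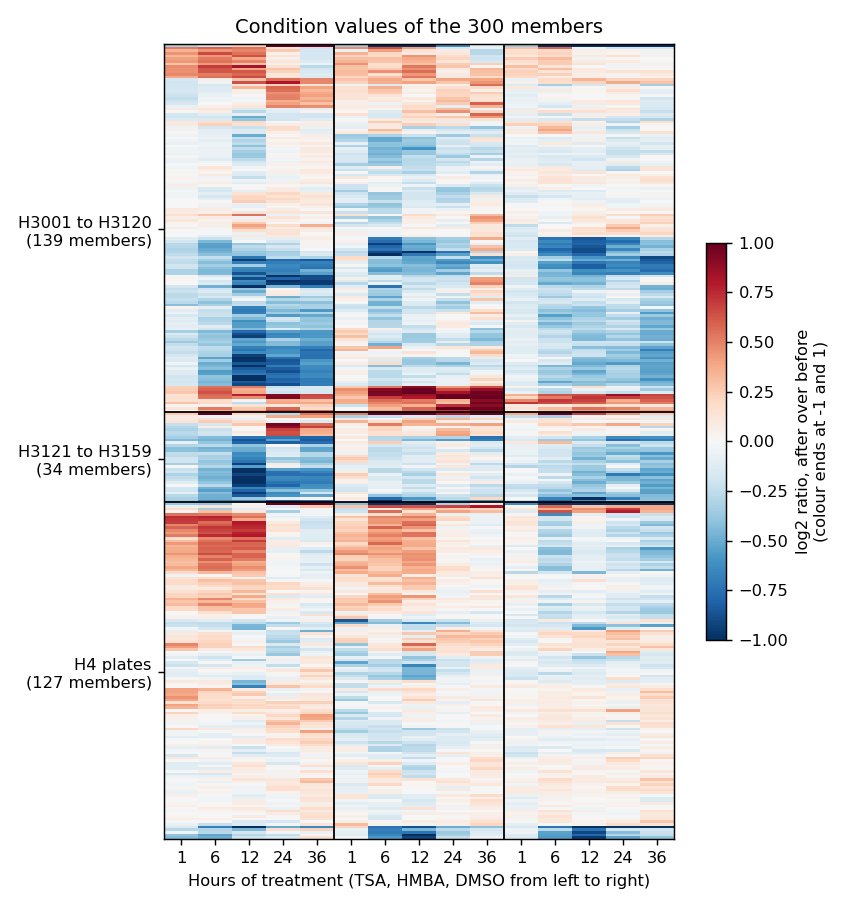
Each row is 1 of the 300 members and each column a condition, from TSA at the left through HMBA to DMSO, with hours of treatment below. Colours give the condition value (log2 ratio, after over before treatment; mean of 4 arrays), and rows are grouped by plates and ordered by similarity within them. The block of lower values with TSA lies in the H3 plates, and blocks of higher values at 1 to 12 h with TSA lie in the H4 plates and among plates H3001 to H3120.

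The first test asked whether the chemicals differed in the log2 ratio averaged over the 5 times, in a limma model with time and chemical across all 14582 clones. Between TSA and DMSO, 17 members differed, 16 higher with TSA (1.41% of all clones were called in this direction) and 1 lower with TSA (0.946% of all clones). Of the 16, 15 came from H4 plates, which held 127 members. Over all clones tested of H4 plates, 137 of 5053 were called in either direction. On TSA arrays the H4 plates shared their slide with plates H3121 to H3159, and on DMSO arrays they did not. The part of this layout was not tested. The 16 differed by a median of 0.53 log2 units, from 0.36 to 2.50, with limma's adjusted p between 0.023 and 0.048. The median difference over the 300 members was 0.02, against 0.00 over all clones tested. At 12 h these 16 members had a median of 0.59 with TSA and -0.10 with DMSO, and at 36 h of -0.10 with TSA and -0.38 with DMSO. With HMBA the same clones had 0.40 at 12 h and -0.01 at 36 h.

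H4016D11, at rank 215, had the largest difference. With TSA at 24 h its 4 arrays gave 1.79, 1.67, 1.07 and 1.39, against -2.19, -2.99, -2.70 and -2.27 with DMSO. The arrays of the 2 chemicals did not overlap at 6, 12, 24 or 36 h. Its condition values with TSA were -0.38, -0.40, -0.04, 1.48 and 1.42 at 1, 6, 12, 24 and 36 h. With HMBA they were -0.43, -2.05, -1.34, -0.32 and 0.08, so that after the low point at 6 h the clone was still low at 12 h and close to 0 at 24 and 36 h. With DMSO they were -0.63, -2.06, -2.78, -2.54 and -2.44, and the clone was still low at 36 h. Averaged over time it was 2.50 ± 0.44 log2 units higher with TSA than with DMSO (SE), 5.67-fold, with limma's adjusted p = 0.023.

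H3078A01, at rank 271, followed H4016D11 closely, with r = 0.990 over the 15 condition values, although the clones lie on different plates and slides. Its arrays at 24 h gave 1.40, 1.39, 1.54 and 1.14 with TSA and -1.69, -1.89, -2.28 and -1.96 with DMSO. Its condition values with HMBA were lowest at 6 h, at -1.74, and ended at -0.09 at 36 h. The difference between TSA and DMSO was 2.03 ± 0.38 log2 units (SE), 4.07-fold, with limma's adjusted p = 0.025. The next clones in likeness were H3081A04 (r = 0.825) and H3010A11 (r = 0.780), the second brightest member. Both correlations are over 15 conditions that share their arrays.

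H3136B07, at rank 171, was the 1 member lower with TSA. It belongs to plates H3121 to H3159, whose slide layout differed between TSA and DMSO arrays, so layout and chemical cannot be told apart for it. Its arrays at 12 h gave -0.92, -1.003, -0.59 and -0.65 with TSA, against -0.15, 0.20, -0.35 and -0.27 with DMSO. All TSA arrays were below all DMSO arrays at that time. Its median intensity at 12 h was 32261 before and 14128 after TSA treatment, and 8809 before and 8727 after DMSO treatment. The part of the signal before treatment in this contrast was not tested. Over the 5 times H3136B07 was lower with TSA by 0.54 ± 0.10 log2 units (estimate -0.54, SE, limma's adjusted p = 0.028). Without replicate 3 the comparison of TSA with DMSO called 0 members, without replicate 1 it called 7, without replicate 2 it called 3 and without replicate 4 it called 10. Without the 36 h conditions it called 0, and without loess 3. H4016D11 and H3078A01 were each still called under 15 of 17 alternatives, all except the fits without 36 h and without replicate 3. H3136B07 was still called under 12 of 17. Its call was lost without 36 h, without replicate 2 or 3, on the Cy5 arrays alone and with plate-row medians removed.

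**Figure D5:**
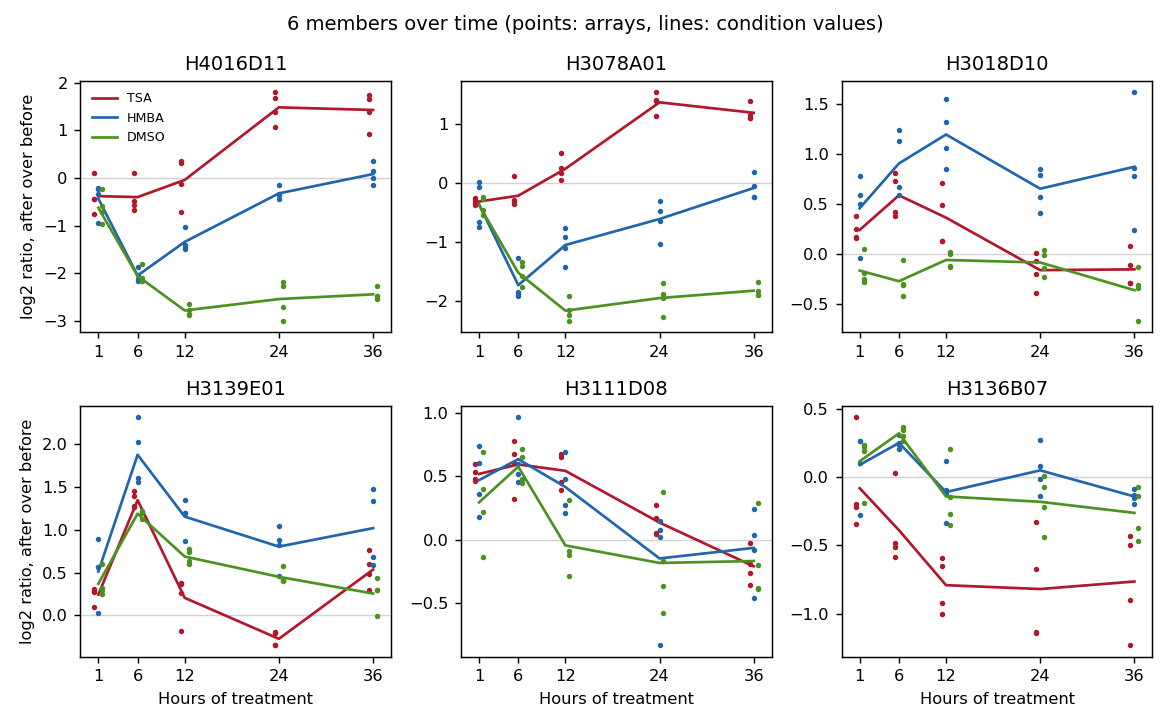
The log2 ratio, after over before treatment, of 6 members is plotted against hours of treatment, with a point for each array and a line through the condition values of each chemical (TSA red, HMBA blue, DMSO green). H4016D11 and H3078A01 are near 1.4 with TSA and below -1.9 with DMSO at 24 h, with HMBA between them.

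Between TSA and HMBA 29 members differed, 1 higher with TSA (1.15% of all clones) and 28 lower with TSA (3.39% of all clones). The 28 differed by a median of -0.55 log2 units, from -0.69 to -0.39, with limma's adjusted p between 0.0038 and 0.049. Of the 28, 18 were among the 139 members of plates H3001 to H3120, 9 among the 34 of plates H3121 to H3159 and 1 among the 127 of H4 plates. Over all clones tested of these 3 sets of plates, 380 of 7113, 177 of 2416 and 104 of 5053 were called in either direction. The median difference over all 300 members was 0.01, and over all clones tested 0.01. The 28 had medians of -0.84 with TSA and -0.13 with HMBA at 12 h, and of -0.66 with TSA and 0.02 with HMBA at 36 h. With DMSO these clones stood at -0.39 at 12 h and -0.50 at 36 h.

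H3139E01, at rank 277, was the third of the 3 members that reached 1 log2 unit. At 24 h its arrays gave -0.21, -0.35, -0.34 and -0.19 with TSA, against 0.82, 0.46, 0.88 and 1.05 with HMBA, and the chemicals did not overlap. At 6 h all 3 chemicals had it high, at 1.34 with TSA, 1.87 with HMBA and 1.19 with DMSO. Averaged over time, it was lower with TSA than with HMBA by 0.66 ± 0.14 log2 units (estimate -0.66, SE, limma's adjusted p = 0.029). H3018D09, at rank 115, was lower with TSA by 0.69 ± 0.16 (estimate -0.69, SE, limma's adjusted p = 0.036). The 1 member that was higher with TSA, H3154A12, differed by 0.39 ± 0.09 (SE, limma's adjusted p = 0.041). Its median intensity before treatment at 24 h was 11449 on TSA arrays and 8291 on HMBA arrays, against 32428 on DMSO arrays. The part of the DMSO arrays in its place among the members was not tested. Its arrays at 24 h gave 0.01, -0.11, 0.77 and 0.81 with TSA, against -0.30, -0.92, -0.01 and 0.15 with HMBA, so that they overlapped and were split by dye. The number of members called between TSA and HMBA was 7, 16, 13 and 17 without replicates 1, 2, 3 and 4, and 3 without 36 h. H3154A12 and H3018D09 were called under none of the 4 fits that leave out a replicate, and the call of H3139E01 was lost without replicate 1, without replicate 4, without 36 h, on the Cy5 arrays alone and with arrays scaled to 1 spread. With plate-row medians removed the differences of H3154A12 and H3018D09 were 0.17 and -0.22 log2 units and were not called.

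Between HMBA and DMSO 4 members differed, all higher with HMBA (0.796% of all clones in this direction), and 0 lower with HMBA (0.151% of all clones). They differed by 0.50 to 1.06 log2 units with limma's adjusted p between 0.011 and 0.0497. The median difference over the 300 members was 0.10, against 0.01 over all clones tested, and 81 members, or 27%, had an unadjusted p under 0.05, against 17.0% of all clones. H3018D10, at rank 49, had 1.56, 1.32, 0.86 and 1.06 on the HMBA arrays at 12 h, against 0.02, 0.00, -0.12 and -0.13 on the DMSO arrays. All HMBA arrays were above all DMSO arrays at 12 h. The difference over time was 1.01 ± 0.14 log2 units (SE), 2.01-fold, with limma's adjusted p = 0.011. The signal before treatment also differed between the chemicals. At 12 h the median intensity of H3018D10 was 10939 before and 24264 after HMBA treatment. On the DMSO arrays it was 42522 before and 44271 after treatment. The part of the signal before treatment in this contrast was not tested.

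The neighbouring well held H3018D09, which had 1.53, 1.35, 0.91 and 1.08 with HMBA at 12 h, against -0.15, -0.14, -0.16 and -0.24 with DMSO. It differed by 1.06 ± 0.16 log2 units (SE), 2.09-fold, with limma's adjusted p = 0.021. At 12 h its median intensity was 9182 before and 20215 after HMBA treatment, and 29192 before and 28952 after DMSO treatment. The part of the signal before treatment was not tested for H3018D09 either. The pair correlated at r = 0.983 over the 15 conditions, and whether they hold the same cDNA or share material was not tested. With TSA both were above 0 up to 12 h and slightly below it later: H3018D09 had 0.27, 0.64, 0.39, -0.20 and -0.17 at 1, 6, 12, 24 and 36 h. With HMBA at 36 h, replicate 3 stood apart at 2.00 for H3018D09 and 1.62 for H3018D10, while the other arrays lay between 0.25 and 0.88. Both calls were kept without each replicate in turn and were lost only without the 36 h conditions, out of 17 alternatives. With plate-row medians removed the differences were smaller, 0.53 log2 units for H3018D09 and 0.48 for H3018D10. The number of members called between HMBA and DMSO was 2 without replicate 1, 2 without replicate 2, 2 without replicate 3 and 0 without 36 h.

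The second test asked for a steady course over time, as a linear slope per 24 h for each chemical. Averaged over the chemicals, 14 members had a slope, 1 upward (0.892% of all clones) and 13 downward (1.69% of all clones). Of the 13, 6 came from H3 plates and 7 from H4 plates. Over all clones tested, 216 of 7113 on plates H3001 to H3120, 75 of 2416 on plates H3121 to H3159 and 85 of 5053 on H4 plates were called. The slopes of the 13 members had a median of -0.36 log2 units per 24 h, between -0.50 and -0.31, and limma's adjusted p ran from 0.021 to 0.046. With TSA, the medians of these 13 were 0.57, 0.50 and -0.21 at 6, 12 and 36 h. With HMBA they had 0.35, 0.41 and -0.06 at these times, and with DMSO -0.19, -0.04 and -0.20. With TSA and HMBA these medians were thus above the starting level at 6 and 12 h and below it at 36 h. The median slope over the 300 members was 0.01, as over all clones tested. Without the 1 h conditions 17 members had a mean slope, 8 upward and 9 downward, and 6 of the 14 calls were kept. With plate-row medians removed there were 16, and 5 of the 14 calls were kept.

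H3111D08, the 20th brightest member, had the steepest mean slope, -0.50 ± 0.09 log2 units per 24 h (SE, limma's adjusted p = 0.021). With plate-row medians removed it was -0.32 and was not called. With TSA at 6 h its arrays gave 0.32, 0.77, 0.60 and 0.67, and at 36 h -0.35, -0.03, -0.19 and -0.26. The early and late arrays did not overlap. With HMBA its condition values were 0.63 at 6 h and -0.06 at 36 h, and with DMSO 0.57 and -0.17. H4034A09, at rank 190, had a slope of -0.41 ± 0.10 (SE, limma's adjusted p = 0.046) and condition values with TSA of 0.80 at 12 h and -0.23 at 36 h. Its call was lost in each of the 4 fits that leave out a replicate, and without 1 h. The 1 member with an upward slope was H3023G12, the second to last member in brightness, with 0.35 ± 0.08 log2 units per 24 h (SE, limma's adjusted p = 0.040). It stood at 0.56 with TSA, 0.91 with HMBA and 0.41 with DMSO at 36 h. Without 1 h its slope was 0.22 and was not called. H3071F07 was the clone most like it among the members (r = 0.956). The number of members with a mean slope was 3 without replicate 1, 0 without replicate 2, 1 without replicate 3 and 0 without 36 h, and it was 0 on the arrays of either dye orientation alone.

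With TSA alone, 4 members had a slope, 1 upward (0.816% of all clones) and 3 downward (0.501% of all clones). H3124G01, at rank 48, was the 1 upward, with 0.73 ± 0.15 log2 units per 24 h (SE, limma's adjusted p = 0.037). Its arrays gave -0.49, -0.14, -0.26 and -0.26 at 1 h and 0.91, 0.88, 0.63 and 0.32 at 36 h, and all late arrays were above all early ones. With HMBA and DMSO its condition values stayed between -0.27 and 0.21. Of the downward ones, H4073A05 and H4073G09 lie on the plate with the most members and correlated at r = 0.973 over the 15 conditions. H4073A05 had a slope of -0.71 ± 0.14 (SE, limma's adjusted p = 0.029), with condition values of 0.74, 0.77, 0.55, -0.07 and -0.12 over the 5 times. H4073G09 had -0.68 ± 0.13 (SE, limma's adjusted p = 0.026), starting at 0.71 and ending at -0.19. The number of members with a TSA slope was 2, 0, 0 and 12 without replicates 1, 2, 3 and 4, and 0 without 36 h or without loess. With arrays scaled to 1 spread it was 42, 13 upward and 29 downward. With plate-row medians removed it was 4 again, but 0 of the 4 calls were kept.

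With HMBA alone 1 member had an upward slope (0.336% of all clones) and 0 a downward one (0.11% of all clones). It was H3068A11, at rank 254, with 0.66 ± 0.13 log2 units per 24 h (SE, limma's adjusted p = 0.049). Its HMBA arrays gave 0.55, 0.75, -0.06 and 0.41 at 6 h and 1.201, 1.13, 0.64 and 0.63 at 36 h, so the 2 times overlapped. At 36 h it was at 0.24 with TSA and 0.11 with DMSO. The call was lost without replicate 1, 2 or 3, without 36 h, without the HMBA 1 h condition, with plate-row medians removed and with the deposited ratios, among 13 of 17 alternatives, and without replicate 4 there were 8 members called. With DMSO alone limma called 0 members and 0% of all clones in either direction, while 11 members, or 3.67%, had an unadjusted p under 0.05, against 3.97% of all clones.

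Whether the slopes differed between chemicals was tested directly. Limma called 0 members for TSA minus DMSO, where 0.0343% of all clones were called higher and 0% lower. It called 0 members for TSA minus HMBA, where 0.0411% of all clones were higher and 0.0137% lower, and 0 members for HMBA minus DMSO, where 0% of all clones were called. An unadjusted p under 0.05 was found for 33 members, or 11% against 8.26% of all clones, for TSA minus DMSO. It was found for 29 members, or 9.67% against 12.4% of all clones, for TSA minus HMBA, and for 15 members, or 5% against 5.64% of all clones, for HMBA minus DMSO. The 95% interval of a slope difference, before any adjustment, reached a median of 0.40 log2 units per 24 h to either side over the members. Much larger differences were not called: H4016D11 differed by 2.41 between TSA and DMSO, with limma's adjusted p = 0.33, and H3124G01 by 0.92, with limma's adjusted p = 0.21. A slope called with TSA and not with DMSO is therefore not shown to differ between the chemicals.

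The last test compared the late times (24 and 36 h) with the middle times (6 and 12 h), averaged over the chemicals. It called 0 members higher (0.0686% of all clones) and 1 lower (0.0686% of all clones). The 1 was H3111D08, whose late values were lower by 0.56 ± 0.09 log2 units (estimate -0.56, SE, limma's adjusted p = 0.046). This call was lost without replicate 2, 3 or 4, without 36 h, without 1 h and on the arrays of either orientation.

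Over the 11 comparisons, 58 of the 300 members were called at least once, against 9.35% of all clones tested. Calls also fell on clones that were less bright. Between TSA and HMBA, 9.67% of members were called, 8% of the 300 clones next in brightness and 7.33% of the 600 after these. For the mean slope the shares were 4.67%, 3.67% and 5.17%. Between TSA and DMSO they were 5.67%, 2.67% and 4.17%, and between HMBA and DMSO 1.33%, 2.67% and 1.67%. The SD of the 15 condition values had a median of 0.19 over the members, 0.16 over the next 300 clones and 0.27 over the dimmest 4793, where the technical SD was 0.41, against 0.24 for the members.

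The brightest member, H3085H12, had no call. Its condition values were -0.48 with TSA, -0.88 with HMBA and -0.73 with DMSO at 6 h, and -0.16, -0.27 and -0.26 at 36 h. Its arrays split by dye: with HMBA at 12 h they gave -2.02 and -1.53 with the after-treatment RNA in Cy5 and -0.31 and -0.54 with it in Cy3. Its before-treatment intensity reached 65508, near the top of the scale, and the part of saturation in this split was not tested. H3010A11, the second, also had no call and stood at -0.22 with TSA, -0.70 with HMBA and -0.73 with DMSO at 6 h.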

How the data were processed

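Per the file headers, the authors deposited a before-treatment and an after-treatment intensity for each clone on a slide, and the values are linear. They also deposited a table of linear ratios, after over before treatment, which served as an alternative. Scanning, flagging and background treatment are not given in the sources used here. The intensities were corrected with normexp (offset 50) and normalized by loess (span 0.3) within each slide with limma 3.58.1 in R 4.3.3. The 22450 clones in the intensity files were kept for tests where no condition had fewer than 3 of its 4 arrays listing them. Arrays that share RNA entered as 1 condition value, with both dye orientations weighted equally.

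Limma fitted a slope on time per chemical (9 residual degrees of freedom) and an additive model of time and chemical (8) to the 15 condition values. Calls have a Benjamini-Hochberg adjusted p under 0.05 over all 14582 clones. The p-values measure the spread of conditions around each model and cover no repeated cultures. Arrays listed 16550 to 21087 clones each, with a median intensity before treatment of 299 to 1050, and their number limits the precision. No array pair correlated above 0.685 over all clones, so none was counted as deposited again. The planned gene lists could not be used, because the identifiers are not paired with genes. Clones were named by a rule: the 2 with the highest level, up to 2 with the largest estimate in each direction per comparison, and the 2 clones on each side of the boundary; likeness is Pearson's r over 15 conditions. Clones given only as most alike and plates were taken from the tables of those measures. The members, lists and tests were chosen with earlier results of these data known. The 31 members lower with TSA at 12 h and the plate sets were picked after their values were seen.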

Additional observations from a re-analysis of the deposited data

Results flagged for a closer look

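With TSA at 36 h, the members' median log2 ratio was -0.0649 on replicate 4, while the other 3 arrays lay between -0.0116 and -0.0048. It was the 1 value to stand apart by Dixon's criterion among 30 sets of 4 array values examined, and chance marks about 1 set in 20. The 30 sets came from the arrays of 15 conditions, so they are not 30 separate groups of arrays. The differences between chemicals, tested within the additive limma model, were marked as well. They were found in 17 members for TSA minus DMSO, 29 for TSA minus HMBA and 4 for HMBA minus DMSO. Of the clones named for them, H4016D11 differed by 2.50, H3078A01 by 2.03 and H3136B07 by -0.54 log2 units for TSA minus DMSO. For TSA minus HMBA, H3154A12 differed by 0.39, H3018D09 by -0.69 and H3139E01 by -0.66. For HMBA minus DMSO, H3018D09 differed by 1.06 and H3018D10 by 1.01.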

How the results depend on the processing

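Beside the values above, 19 other settings were tried. The cause of a moved value was not tested, except that fewer conditions or arrays leave less to estimate from. Counts are of members called, in the order mean slope, TSA slope, HMBA slope, then TSA minus DMSO, TSA minus HMBA, HMBA minus DMSO and late minus middle, where they moved by over 1.5 times. Leaving out 1 replicate gave 0 to 11, 0 to 12, 0 to 8, then 0 to 10, 7 to 17, 2 to 3 and 0 to 1, and 0 to 1 for the slope difference TSA minus HMBA. Without 36 h they were 0, 0, 0, 0, 3, 0 and 0. Without loess the mean slope count was 24, the TSA and HMBA slope counts 0 and 0, TSA minus DMSO 3 (2 higher and 1 lower), HMBA minus DMSO 2 and late minus middle 0. With scaling between arrays the counts were 24, 42 and 0 for the slopes, 28 for TSA minus DMSO, 0 for late minus middle and 1 for the slope difference TSA minus DMSO. On arrays with after-treatment RNA in Cy5 alone the counts were 0, 0, 0, 5, 6, 14 and 0, and in Cy3 alone 0 for the mean slope, 2 for the HMBA slope, 10 for TSA minus DMSO, 8 for TSA minus HMBA and 0 for late minus middle. With only clones listed on all 60 arrays, the HMBA slope count was 0, HMBA minus DMSO 12 and late minus middle 2. With plate-row medians removed, HMBA minus DMSO had 11 and late minus middle 3; the counts for the mean, TSA and HMBA slopes moved less, but 5 of 14, 0 of 4 and 0 of 1 calls were kept. Without 1 h the TSA slope count was 8 and late minus middle 0. The HMBA slope count was also 0 without background correction, with the deposited ratios, with membership from array medians and without the HMBA 1 h condition. With the H3 and H4 medians of each slide removed, HMBA minus DMSO had 7 members; this setting and the one without the HMBA 1 h condition were chosen after seeing the data.

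The fit with the replicate number as a block counts the 60 arrays almost as if they were independent, with a correlation of 0.0251 and 0.0287 within conditions in the 2 models. It called 66, 62, 30, 67, 84, 61 and 51 members, 1 for the DMSO slope, and 7, 8 and 2 for the slope differences TSA minus DMSO, TSA minus HMBA and HMBA minus DMSO. The deviations of arrays from their condition means correlated at a median r of 0.155 for pairs of the same number in different conditions (-0.156 to 0.552) and at 0.153 for pairs of another number and the same dye orientation, so the numbers were not taken to pair the samples.

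The members' median at 36 h with TSA was -0.0553 without loess and 0.0235 on the Cy3 arrays, and -0.0468 to 0.00122 without 1 replicate. With HMBA it was -0.110 without loess and -0.0260 to 0.0390 without 1 replicate. With DMSO it was -0.0601 without loess, -0.130 after scaling, -0.0794 with the deposited ratios, -0.0843 on the Cy3 arrays and -0.0559 with plate-row medians removed. It was -0.0822 with membership from array medians, -0.0822 with membership from the arrays of the other 2 chemicals and -0.126 to -0.0513 without 1 replicate. Of the named clones' calls, 169 were kept and 103 lost over 17 settings each, and 0 changed sign.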
